A study of Drosophila melanogaster with 24 samples.

Results

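Transcripts of 10 genes of the heat shock response were followed in sorted clock neurons of Drosophila melanogaster: the small heat shock genes Hsp22, Hsp23, Hsp26, Hsp27, Hsp67Bc and l(2)efl, the co-chaperone genes starvin (stv) and DnaJ-1, the Hsp90 gene Hsp83 and the heat shock factor gene Hsf. They were chosen by name from a table of 15610 genes, with earlier results of these data known, so counts among them are not independent support. Rows were found for 9 of the 10, and Hsp22 is not analysed here. The flies were male and carried CLK856-Gal4, a driver line that marks clock neurons, with UAS-Cas9 and UAS-eGFP. Controls (Cas9) had no guides, and mutants carried UAS-3XgRNA-Drp1 (Drp1-mut), UAS-3XgRNA-Marf (Marf-mut) or UAS-3XgRNA-Opa1 (Opa1-mut) in addition, so the nuclease was made in every group. The Drp1 protein cuts mitochondria apart, whereas Marf, the fly mitofusin, fuses their outer membranes and Opa1 their inner ones. Each genotype was sampled at about 15 days (young) and about 35 days (old) at ZT14, with 3 libraries per group and 24 in all. All flies were raised at 25 °C on cornmeal food, and the labels name no heat treatment. Each library came from about 1000 GFP-positive cells and was read as 5′ UMI counts over exons. Each group's 3 libraries are pools sorted out of 1 suspension of 80 to 100 brains, so each p-value between groups measures how far sorted pools vary, and genotype or age cannot be told apart from the suspension.

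Small heat shock proteins bind unfolding proteins without using ATP and hold them for refolding or disposal. The Hsp70 machine then works on such clients: a J-domain protein such as DnaJ-1 delivers the client and stimulates the Hsp70 ATPase, and a BAG-domain protein such as Starvin releases the nucleotide. Hsp83 is the fly Hsp90, which matures signalling proteins and holds Hsf inactive in unstressed cells. Hsf is the single heat shock factor of the fly, and on stress it binds the promoters of most of these genes. Hsp67Bc and Starvin act together in chaperone-assisted autophagy in fly muscle and cultured cells.

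Libraries held 684175 to 2889269 UMIs. Levels are CPM, each library's counts rescaled to a common total with TMM factors, and differences are log2 fold changes with their SE, both from the counts. The clock neuron markers tim and Pdf were present in all groups (means of 639 to 1164 and 6993 to 17270 CPM), and transcripts of other cell types were present too. The 10 glial markers summed to group means of 802 to 1224 CPM, of which Gs2 made up the most (321 to 549.8) and repo at most 10.96, and 6 photoreceptor markers to 69.4 to 129.5, mostly norpA (57.0 to 102.2), with ninaE at most 13.1. Drp1 fell in old Drp1-mut (-0.89) and Opa1 in old Opa1-mut (-0.68), while Marf was not called in Marf-mut at either age (in old flies 115.8 ± 9.25 CPM against 138.2 ± 2.70 in Cas9, SD, n = 3), and 5′ counts do not show whether a gene was cut. Young means were 99.2 CPM for Drp1 in Drp1-mut (145 in Cas9), 118.9 for Marf in Marf-mut (143.9) and 102.8 for Opa1 in Opa1-mut (144.7). In such bulk pools, fewer cells of a type and less RNA per cell cannot be told apart.

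In old Marf-mut flies, 6 of the 9 genes fell against old Cas9: Hsp26, Hsp27, Hsp67Bc, stv, DnaJ-1 and Hsp83. None rose. By the same test, edgeR's quasi-likelihood test at a Benjamini-Hochberg adjusted p under 0.05, 4.58% of all genes were called and 2.91% were called lower. For 7 of the 9 genes all 3 old Marf-mut libraries lay below all 3 old Cas9 libraries, an arrangement that 9.77% of all genes had. For 1 gene, l(2)efl, they lay above (12.1% of all genes). The median log2 fold change was -0.89 over the 9 genes and 0.01 over all genes tested. Leaving out 1 library at a time left 5 to 6 of the 9 called, though not always the same genes. Hsp26, Hsp27, stv and DnaJ-1 were called lower in each of 6 omissions, Hsp83 in 5 and Hsp67Bc in 2. Hsp23 was called lower without old Cas9 replicate 3 or old Marf-mut replicate 3, and l(2)efl higher without old Cas9 replicate 1.

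In young Marf-mut flies 1 gene was called, stv, and it was lower, where 0.346% of all genes were called and 0.138% lower. The libraries of 6 of the 9 genes lay below those of young Cas9, against 8.92% of all genes, and the median over the 9 was -0.35 (0.01 over all). In young Opa1-mut 2 genes rose, l(2)efl and Hsp27, where 2.94% of all genes were called and 2.27% higher, and 3 of the 9 had all libraries above young Cas9 (10.2% of all genes). In old Opa1-mut 1 gene fell, Hsp23, which as a share of 9 is close to the 13.2% of all genes called there (5.65% lower), and 2 of the 9 had all libraries above old Cas9 (16.9% of all genes). Neither Drp1-mut comparison called any of the 9, with 0.0831% of all genes called in young and 0.394% in old flies. At an unadjusted p under 0.05 there were 3 of the 9 in young and 2 in old Drp1-mut, and DESeq2 also called 0 at each age. Young Drp1-mut libraries lay above all young Cas9 libraries for 2 of the 9 and below for 3 (4.13% and 5.86% of all genes), and old ones below for 3 (7.35%).

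**Figure D1:**
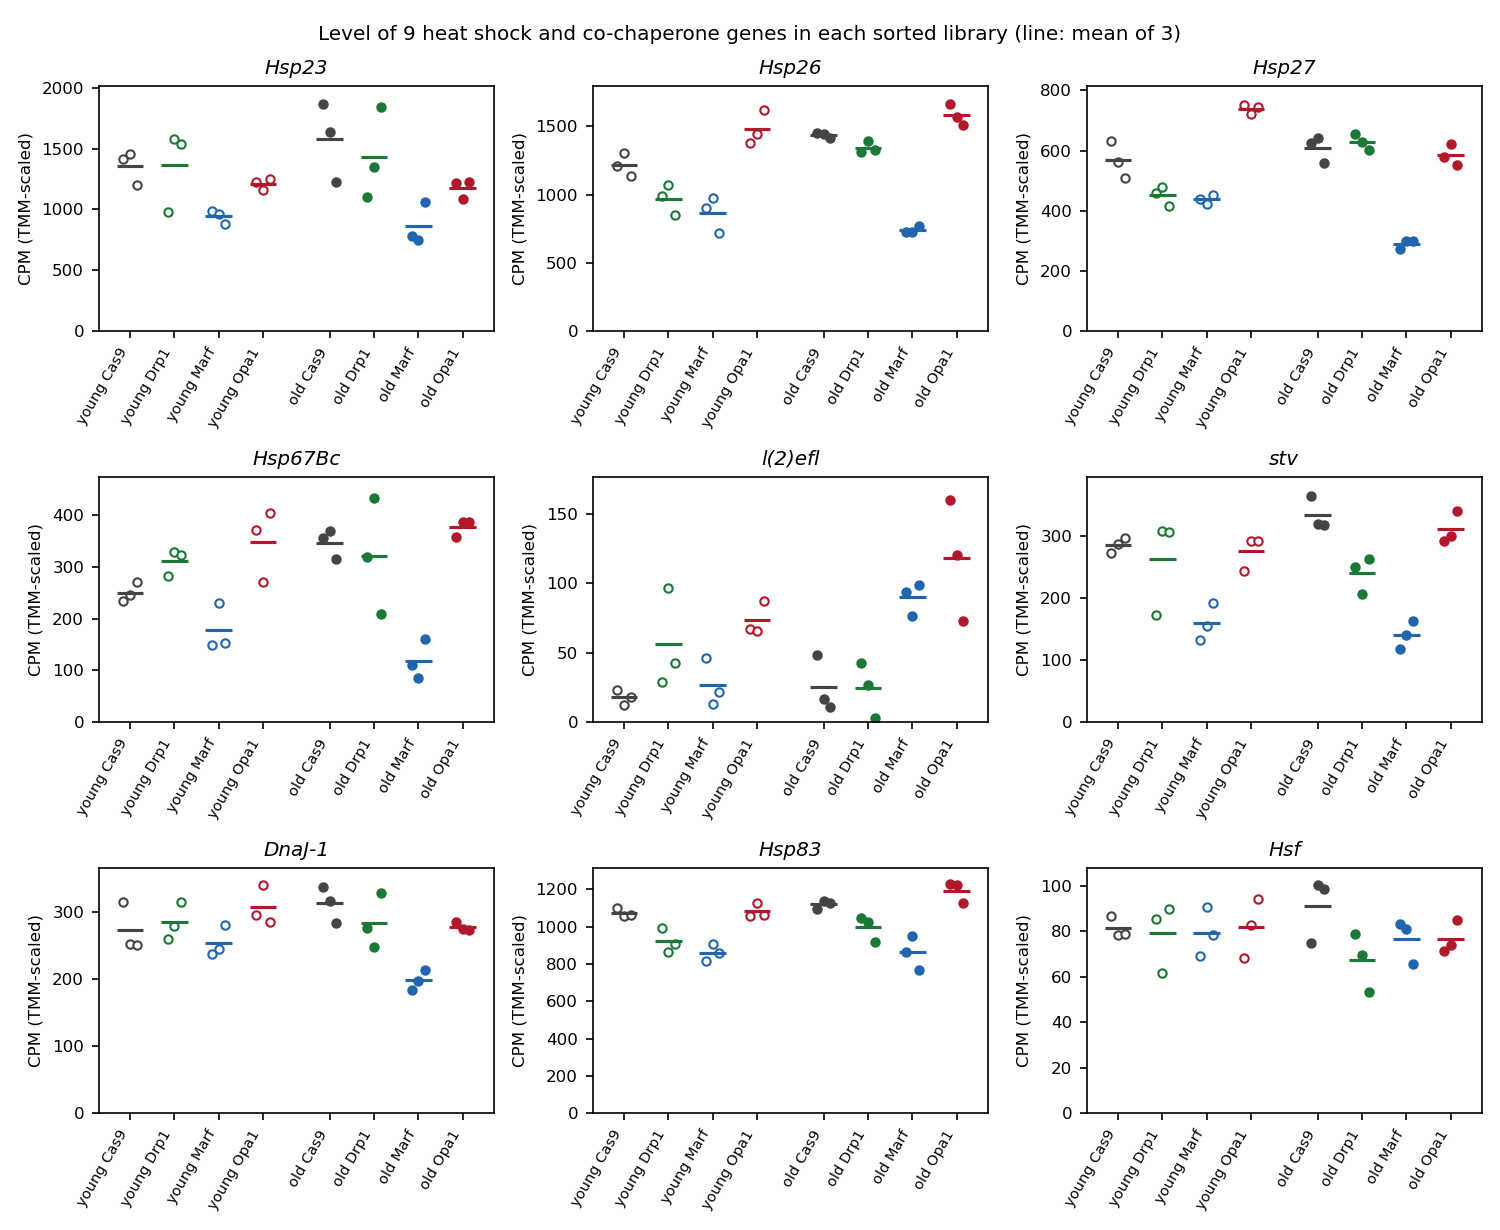
Level of each of the 9 genes (y axis, CPM after TMM scaling, linear from 0) in each library, with young groups as open and old groups as filled points and the mean of 3 as a line. Both Marf-mut groups have the lowest means for 7 of the 9 genes, and l(2)efl and Hsf are the exceptions.

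**Figure D2:**
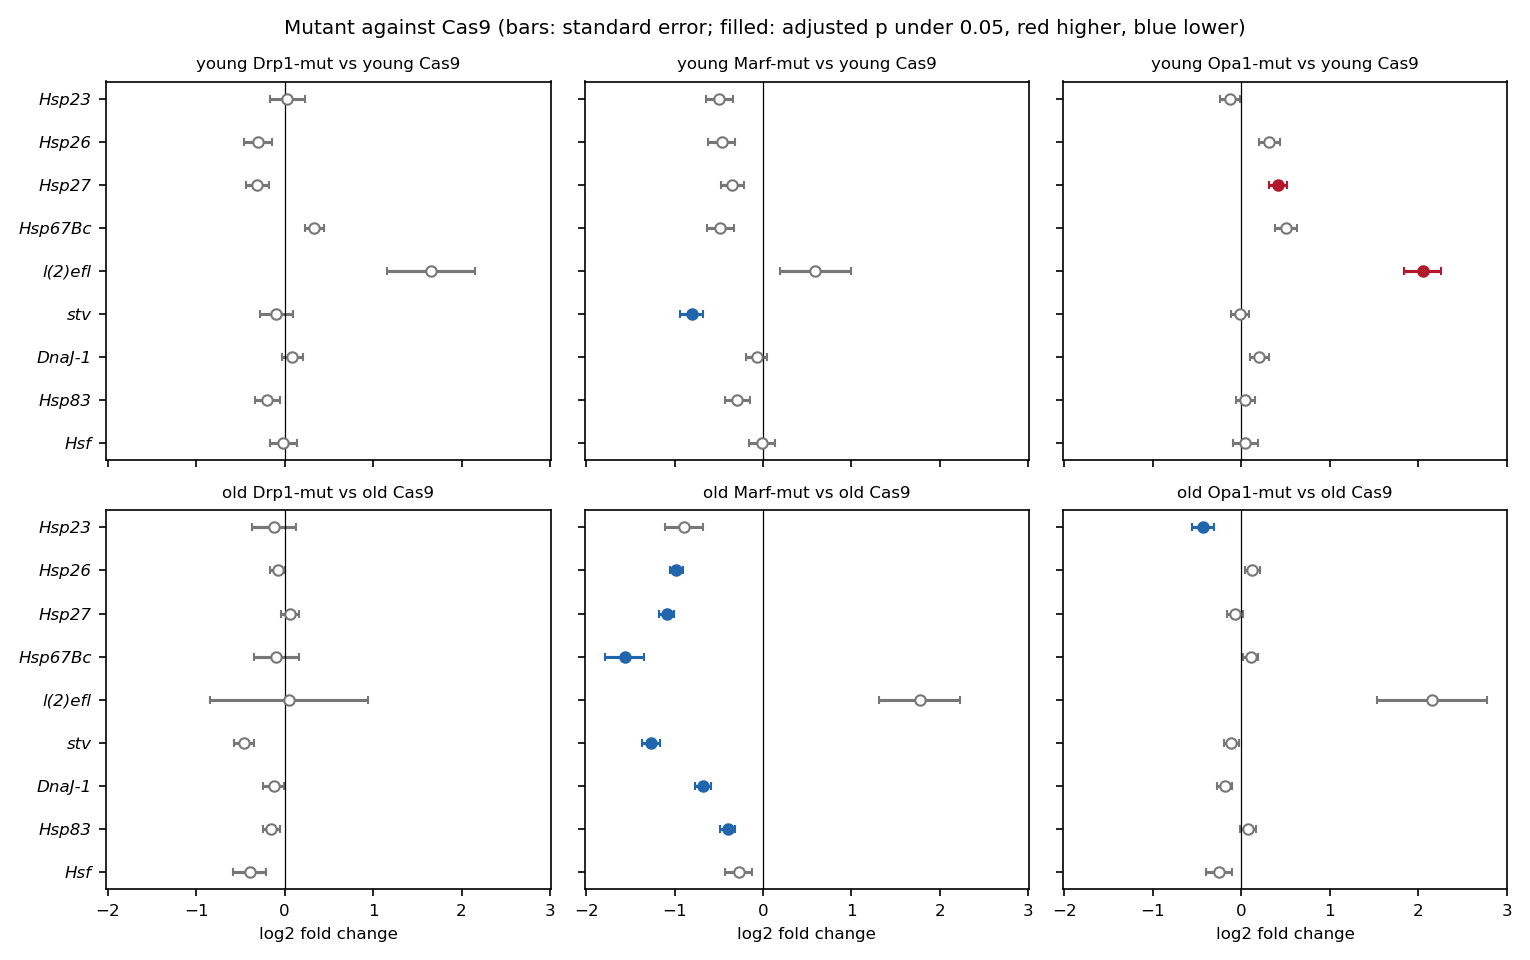
Log2 fold change of each gene (x axis, bars are standard errors) for each mutant against Cas9 of the same age, with filled points where the adjusted p was under 0.05. In old Marf-mut 6 filled points lie left of 0, and l(2)efl is the gene that lies farthest to the right in every panel but that of old Drp1-mut.

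Hsp27 (FBgn0001226, 3L from 9384063 to 9385694 on the plus strand) codes for a small heat shock protein found in the nucleus and cytoplasm. In young flies it stood at 631, 563 and 510 CPM in Cas9, 458, 478.5 and 416 in Drp1-mut, 439, 423 and 453 in Marf-mut and 752, 723 and 744 in Opa1-mut. All young Opa1-mut libraries were above every other young library, and the Drp1-mut and Marf-mut libraries were below all young Cas9 libraries. In old flies it stood at 625.5, 642 and 559.5 CPM in Cas9, 656, 629.8 and 601 in Drp1-mut, 273.5, 300.1 and 299 in Marf-mut and 579, 622 and 553 in Opa1-mut. The old Marf-mut libraries were the lowest 3 of the series, while old Drp1-mut and old Opa1-mut overlapped old Cas9. Hsp27 fell in old Marf-mut (-1.09, SE 0.09, adjusted p = 8.15e-09), a fold of 0.47 (95% interval 0.416 to 0.533). It rose in young Opa1-mut (0.42, SE 0.10, adjusted p = 0.0418). The first call held in each of 6 omissions of a library. The second was lost without young Cas9 replicate 3 or any 1 of the young Opa1-mut libraries (adjusted p of 0.111 to 0.156), with log2 depth in the model (0.687) and in a fit of the 12 young libraries (0.0825). Depth did not overlap between young Opa1-mut and young Cas9, so the fit with log2 depth cannot tell it apart from genotype.

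Hsp26 (FBgn0001225, 3L from 9376418 to 9377427 on the minus strand) codes for a cytoplasmic small heat shock protein. In young flies it stood at 1209, 1302 and 1133 CPM in Cas9, 989, 1073 and 848 in Drp1-mut, 899.7, 975 and 719 in Marf-mut and 1376, 1447 and 1623 in Opa1-mut. Opa1-mut libraries were all above Cas9, and Drp1-mut and Marf-mut libraries were all below, yet none of these differences was called (log2 fold changes of 0.32, -0.30 and -0.47, with adjusted p of 0.15, 0.997 and 0.282). The Opa1-mut difference was called without young Cas9 replicate 2 (0.38, adjusted p = 0.0233), and the Marf-mut one with log2 depth in the model (0.00173) and in the fit of 24 libraries (0.0472). In old flies Hsp26 stood at 1453, 1445 and 1418 CPM in Cas9, 1311, 1390 and 1328 in Drp1-mut, 725, 724 and 773.5 in Marf-mut and 1663, 1572 and 1511 in Opa1-mut. The old Marf-mut libraries, at most 774 CPM, were about level with each other and well below the rest of their age, and old Opa1-mut libraries were above and old Drp1-mut libraries below all old Cas9 libraries. Hsp26 fell in old Marf-mut (-0.98, SE 0.08, adjusted p = 8e-09), to 0.507 (95% interval 0.455 to 0.566) of the old Cas9 level. This call held in each of 6 omissions and 8 other settings.

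Hsp23 (FBgn0001224, 3L from 9381882 to 9382765 on the plus strand), which codes for another small heat shock protein of the cytoplasm, varied widely between the libraries of some groups. Its young libraries stood at 1411, 1453 and 1202 CPM in Cas9, 977, 1582 and 1535 in Drp1-mut, 991, 965 and 883.5 in Marf-mut and 1222, 1164 and 1253 in Opa1-mut. Its old libraries stood at 1863, 1640 and 1224 CPM in Cas9, 1105, 1350 and 1843 in Drp1-mut, 782, 745 and 1058 in Marf-mut and 1216, 1084 and 1228 in Opa1-mut. Marf-mut libraries were all below Cas9 at each age, and Drp1-mut spread across the Cas9 range. The old Marf-mut difference of -0.89, SE 0.21, adjusted p = 0.107 was not called, but it was without old Cas9 replicate 3 (adjusted p = 0.035) or old Marf-mut replicate 3 (0.00631). It was also called by DESeq2 (adjusted p = 0.0046), without the filter (1.72e-05), with log2 depth in the model (-1.46, 2e-06) and in the fit of 24 libraries (0.00669). In young Marf-mut the difference of -0.49, SE 0.15, adjusted p = 0.219 was not called, and it was by DESeq2 (0.048) and with log2 depth (0.00276). The authors' deposited table calls the old difference, with an adjusted p of 0.00729. In old Opa1-mut Hsp23 fell by 0.43 (SE 0.12, adjusted p = 0.0243), although the libraries overlap. That call was lost without old Cas9 replicate 1 or 2 or any 1 of the old Opa1-mut libraries (adjusted p of 0.0751 to 0.119), under total count scaling and in fits of 12 or 24 libraries (at most 0.284). The authors' deposited table does not call it (adjusted p = 0.358).

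Hsp67Bc (FBgn0001229, 3L from 9371511 to 9372497 on the minus strand) codes for the small heat shock protein that pairs with Starvin in fly cells. In young flies it stood at 234, 246.5 and 271 CPM in Cas9, 282, 329 and 323 in Drp1-mut, 149.5, 230.4 and 152 in Marf-mut and 371.5, 270.4 and 404 in Opa1-mut. In old flies it stood at 356, 370 and 315 CPM in Cas9, 319, 434 and 209 in Drp1-mut, 109.7, 84.9 and 160.5 in Marf-mut and 358, 387 and 387 in Opa1-mut. Each old Marf-mut library was below every library of the other genotypes, and old Drp1-mut had the widest spread. Hsp67Bc fell in old Marf-mut (-1.57, SE 0.22, adjusted p = 0.0173), to 0.338 (95% interval 0.23 to 0.496) of the control. The call was lost without any 1 of the old Cas9 libraries or old Marf-mut replicate 1 (log2 fold changes of -1.63 to -1.51, adjusted p of 0.0507 to 0.0779), and it held in 8 other settings. In young Opa1-mut the difference of 0.51, SE 0.13, adjusted p = 0.0522 was not called, and it was without young Opa1-mut replicate 2 (0.66, adjusted p = 0.00465), with DESeq2 size factors (0.045), under total count scaling (0.035), without the filter (0.0012) and by DESeq2 (0.00619). In young Marf-mut it was -0.48 (adjusted p = 0.238) and called without the filter (0.0322).

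The remaining small heat shock gene, l(2)efl (FBgn0011296, 2R from 23684651 to 23685543 on the minus strand), is related to alpha-crystallins. It was the least counted of the small heat shock genes, with 2 to 234 UMIs per library. In young flies it stood at 22.98, 12.4 and 18.5 CPM in Cas9, 29.2, 96.65 and 42.55 in Drp1-mut, 46.1, 13.1 and 21.8 in Marf-mut and 67.4, 65.9 and 87.2 in Opa1-mut. All Opa1-mut and all Drp1-mut libraries were above all Cas9 libraries, and young Drp1-mut replicate 2 stood apart from its group at 96.7 CPM. The young Drp1-mut difference from Cas9 was not called (1.65, SE 0.49, adjusted p = 0.812), but was without the filter (0.0359). Young Opa1-mut against young Drp1-mut was not called either (0.41, adjusted p = 0.907). In old flies it stood at 48.05, 16.85 and 11.04 CPM in Cas9, 42.6, 26.95 and 3.14 in Drp1-mut, 94.02, 76.6 and 98.9 in Marf-mut and 160.4, 120.5 and 73.1 in Opa1-mut. All old Marf-mut and old Opa1-mut libraries were above all old Cas9 libraries, the highest of which, replicate 1 at 48.1 CPM, held 61 UMIs against 21 and 12 in the others. l(2)efl rose in young Opa1-mut (2.05, SE 0.21, adjusted p = 3.03e-05), a fold of 4.15 (95% interval 3.04 to 5.66). This call held in each of 6 omissions but not in fits of 12 or 24 libraries (adjusted p of at most 0.113).

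In old flies l(2)efl was not called, with 1.77, SE 0.45, adjusted p = 0.125 in Marf-mut and 2.16, SE 0.62, adjusted p = 0.12 in Opa1-mut. Both became calls without old Cas9 replicate 1, at 2.63 (adjusted p = 6.35e-08) and 3.01 (0.034). The Opa1-mut difference was also called by DESeq2 (adjusted p = 0.0211) and in fits of 24 (0.0236) or 12 libraries (0.047), and the Marf-mut one without the filter on low counts (7.9e-06). The authors' deposited table calls l(2)efl higher in old Opa1-mut (adjusted p = 0.0428) and not in old Marf-mut (0.297). The gene St3 overlaps l(2)efl on the other strand, CR43483 overlaps Hsp27 and CG14966 overlaps Hsp83 in the same way. Whether counting used the strand is not given in the sources used here, so reads of these pairs may not be told apart.

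The BAG co-chaperone gene stv (FBgn0086708, 3L from 13477541 to 13483515 on the plus strand) was the one gene of the 9 called lower in Marf-mut at both ages. Young libraries stood at 272.5, 287 and 298 CPM in Cas9, 174, 309 and 307 in Drp1-mut, 132, 156 and 192 in Marf-mut and 244, 293 and 293 in Opa1-mut. Old libraries stood at 365, 320.2 and 318 CPM in Cas9, 251, 207 and 263 in Drp1-mut, 117.5, 140.5 and 164 in Marf-mut and 293, 300 and 341 in Opa1-mut. Every old Marf-mut library was below every library of the other genotypes, and the young Marf-mut libraries were below all others of their age except Drp1-mut replicate 1. stv fell in young Marf-mut (-0.81, SE 0.13, adjusted p = 0.0136) and in old Marf-mut (-1.27, SE 0.11, adjusted p = 1.63e-08), there to 0.416 (95% interval 0.358 to 0.484) of the control. The old call held in each of 6 omissions. The young call was lost without young Cas9 replicate 1 or 3 or young Marf-mut replicate 1 or 2 (adjusted p of 0.0649 to 0.131) and in the fit of 12 young libraries (0.118). In old Drp1-mut all libraries were also below old Cas9, at -0.46, SE 0.11, adjusted p = 0.108, which was not called, but was under total count scaling (0.0426) and without the filter (0.014).

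DnaJ-1 (FBgn0263106, 3L from 5750029 to 5752189 on the minus strand), the Hsp40 gene, stood at 315, 252 and 250.3 CPM in Cas9, 259, 278.5 and 315 in Drp1-mut, 237.5, 244 and 279 in Marf-mut and 295, 339.6 and 284 in Opa1-mut in the young libraries. Young groups overlapped, except that all Opa1-mut libraries were above all Marf-mut libraries. In old flies it stood at 337, 316 and 282.5 CPM in Cas9, 275, 247 and 328 in Drp1-mut, 183, 197 and 214 in Marf-mut and 284, 274 and 273 in Opa1-mut. The old Marf-mut libraries were the lowest 3 of the series. DnaJ-1 fell in old Marf-mut (-0.68, SE 0.09, adjusted p = 4.65e-05), to 0.625 (95% interval 0.547 to 0.714) of the control, and this held in each of 6 omissions.

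Hsp83 (FBgn0001233, 3L from 3192969 to 3197059 on the plus strand) stood at 1098, 1056 and 1060 CPM in Cas9, 991, 866 and 905 in Drp1-mut, 818, 908.5 and 857 in Marf-mut and 1055, 1126 and 1065 in Opa1-mut in young flies. Its old libraries stood at 1094, 1136 and 1127 CPM in Cas9, 1045, 1027 and 919 in Drp1-mut, 866, 952 and 767 in Marf-mut and 1229, 1224 and 1125 in Opa1-mut. Marf-mut libraries were below all Cas9 libraries at each age, and Drp1-mut libraries were as well. Hsp83 fell in old Marf-mut (-0.40, SE 0.09, adjusted p = 0.00637), to 0.758 (95% interval 0.67 to 0.859) of the control. The call was lost without old Marf-mut replicate 3 (-0.32, adjusted p = 0.0549) and with log2 depth in the model (0.452).

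Hsf (FBgn0001222, 2R from 18130303 to 18134634 on the minus strand), the gene of the transcription factor, was called in none of the 22 comparisons made here. It ranged from 53.3 to 100.3 CPM over the 24 libraries, and each group in the order of its means overlapped the next. In old Marf-mut its difference was -0.28, SE 0.15, adjusted p = 0.378, and in young Marf-mut -0.01 (SE 0.15). The count of transcripts does not measure the activity of the factor.

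The order of group means was alike for several genes. For Hsp23, Hsp26, Hsp27, Hsp67Bc, stv and DnaJ-1 the lowest mean was that of old Marf-mut, and for these 6 and Hsp83 both Marf-mut groups were the lowest. An Opa1-mut group had the highest mean for 5 genes: Hsp26, Hsp27, Hsp67Bc, l(2)efl and Hsp83. Neighbours in the order mostly overlapped in their libraries. The drops without overlap just above old Marf-mut were those of Hsp27, from young Marf-mut at 438 ± 14.8 CPM (SD, n = 3) to 291 ± 15.0, and of DnaJ-1, from 254 ± 22.5 to 198 ± 15.3.

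Mutants were also compared with each other, since each mutant differs from Cas9 by a guide construct. These comparisons share libraries with those above and are not independent of them. Old Opa1-mut was higher than old Marf-mut in 7 of the 9 genes, all but l(2)efl and Hsf, where 15.9% of all genes were called and 9.14% higher, and 7 had libraries that did not overlap (16.8% of all genes, higher). The largest of these was Hsp67Bc (1.67, SE 0.23, adjusted p = 0.00911), followed by stv (1.15) and Hsp26 (1.10). The Hsp67Bc call was lost without old Opa1-mut replicate 3 (adjusted p = 0.0503), and the Hsp23 call (0.46) without old Marf-mut replicate 1 or old Opa1-mut replicate 1 or 3 (0.0583 to 0.119), under total count scaling and in fits of 12 or 24 libraries (0.102 to 0.257). Without old Opa1-mut replicate 3, l(2)efl was called higher (0.65, adjusted p = 0.00139). In young flies Opa1-mut was higher than Marf-mut for Hsp26 (0.79), Hsp27 (0.77), Hsp67Bc (0.99) and stv (0.80), with 1.39% of all genes called and 0.867% higher. For 8 of the 9 genes all young Opa1-mut libraries were above all young Marf-mut libraries, against 8.28% of all genes.

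Of the young calls, Hsp27 held in each of 6 omissions. Hsp26 was lost without young Marf-mut replicate 1 or young Opa1-mut replicate 1 or 3 (adjusted p of 0.0654 to 0.146), and Hsp67Bc without young Marf-mut replicate 1 or 3 or young Opa1-mut replicate 1 or 3 (0.16 to 0.308), with DESeq2 size factors (0.0508) and with log2 depth in the model (0.214). The stv call was lost without young Marf-mut replicate 1 or 2 or young Opa1-mut replicate 3 (adjusted p of 0.0623 to 0.101), under total count scaling (0.0749) and in the fit of 12 libraries (0.0576). Calls were gained by Hsp23 and Hsp83 without young Marf-mut replicate 3 (0.32 and 0.34, adjusted p of 0.0265 and 0.0272) and by l(2)efl without young Marf-mut replicate 1 (2.04, 0.00516).

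Against Drp1-mut of the same age, old Marf-mut was lower in 4 genes, with 4.34% of all genes called and 2.47% lower, and its libraries lay below for 6 and above for 1 (9.27% and 13.1% of all genes). The 4 were Hsp27 (-1.14, SE 0.09, adjusted p = 4.01e-07), Hsp26 (-0.89), stv (-0.80) and DnaJ-1 (-0.55). Hsp67Bc had the largest fall in size, with libraries that did not overlap, and was not called (-1.47, SE 0.38, adjusted p = 0.164), but was by DESeq2 (0.00845) and in fits of 24 (0.00151) or 12 libraries (0.0193). Hsp23 was not called either (-0.77, adjusted p = 0.221), but was without the filter (0.00367) and in the fit of 24 libraries (0.0161). DnaJ-1 was lost without old Marf-mut replicate 1 (adjusted p = 0.07), and stv and DnaJ-1 with log2 depth in the model (0.121 and 0.693). Depth did not overlap between old Marf-mut and old Drp1-mut, so the depth fit cannot tell it apart from genotype. l(2)efl was called higher without old Drp1-mut replicate 1 (2.48, adjusted p = 0.0108) or 3 (1.29, 0.00111), and without the filter (6.26e-06). In young flies 1 gene, Hsp67Bc, was lower in Marf-mut than in Drp1-mut (-0.82, SE 0.16, adjusted p = 0.0456), with 0.46% of all genes called and 0.223% lower, and it alone had libraries without overlap (6.48% of all genes, lower). That call was lost without any 1 of the young Drp1-mut libraries or young Marf-mut replicate 1 or 3 (0.0773 to 0.25), under total count scaling (0.0506) and in the fit of 24 libraries (0.109), and stv was called lower without young Drp1-mut replicate 1 (-0.93, 0.0232), without the filter (7.77e-05), by DESeq2 (0.0115) and in the fit of 24 libraries (0.0286). Young Opa1-mut exceeded young Drp1-mut in Hsp27 (0.73, SE 0.12, adjusted p = 0.0209), with 0.224% of all genes called and 0.21% higher, and 3 of the 9 had libraries without overlap (6.16% of all genes, higher). The call was lost without any 1 of these 6 libraries but young Drp1-mut replicate 3 (adjusted p of 0.0559 to 0.176), where Hsp26 was called in its turn (0.53, 0.0301). Hsp26 was also called under total count scaling (0.0262), without the filter (0.00643), by DESeq2 (0.0156) and in the fit of 24 libraries (0.00388). Old Opa1-mut and old Drp1-mut differed in 0 of the 9 by edgeR and 0 by DESeq2, with 4 at an unadjusted p under 0.05 and 10.2% of all genes called, while 4 of the 9 had all old Opa1-mut libraries higher (17.2% of all genes). Hsp23 was called lower without old Drp1-mut replicate 1 (-0.48, adjusted p = 0.0255), and stv higher without replicate 3 (0.41, 0.0258). l(2)efl was called higher in the fit of 24 libraries (2.11, adjusted p = 0.034) and with a replicate block (2.26, 0.000217). Under total count scaling Hsp26 (0.34, adjusted p = 0.00437), stv (0.48, 0.0129) and Hsp83 (0.36, 0.0077) were called higher.

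**Figure D3:**
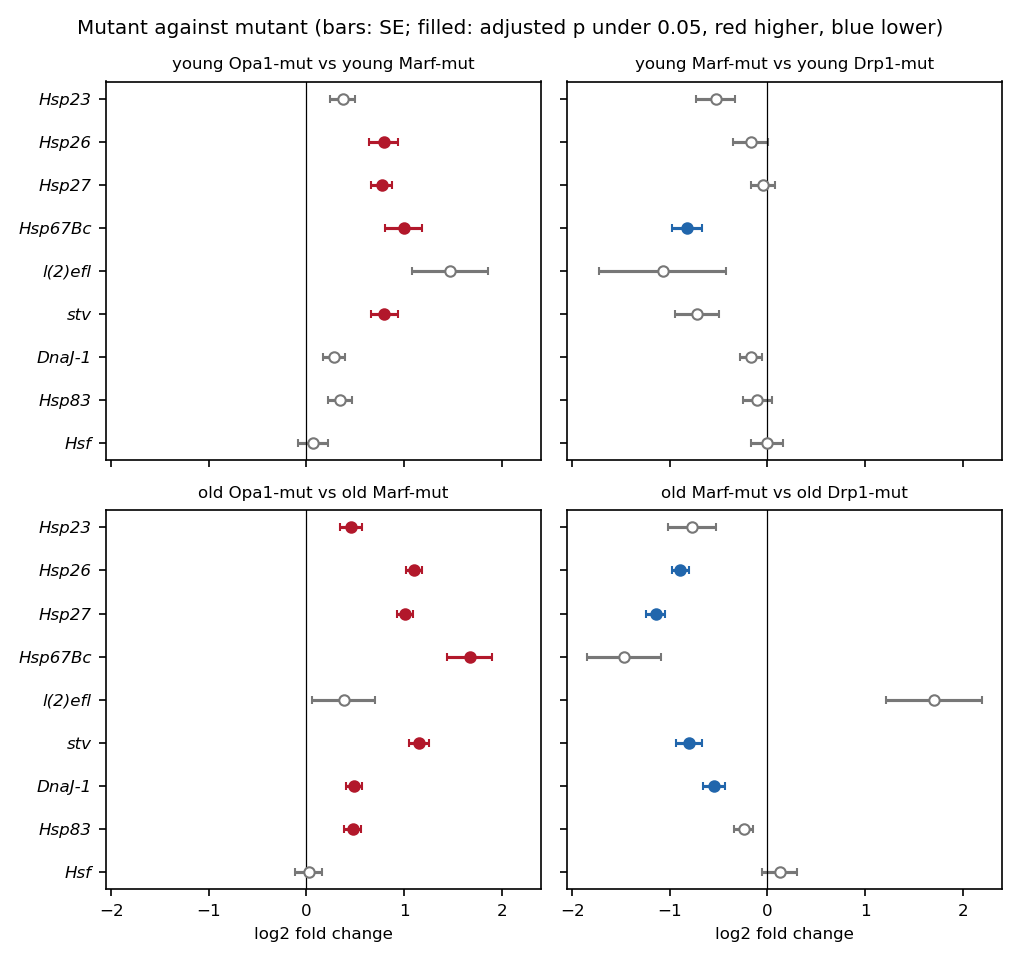
Log2 fold change of each gene between mutants of the same age (x axis, bars are standard errors), with filled points at an adjusted p under 0.05. Opa1-mut exceeded Marf-mut in 4 genes when young and 7 when old, and Marf-mut was below Drp1-mut in 1 gene when young and 4 when old.

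In control neurons 1 of these genes was called with age. Hsp67Bc rose from young to old Cas9 (0.52, SE 0.10, adjusted p = 0.0114), 1 of the 9 genes where 2.45% of all genes were called and 2.13% higher. Libraries did not overlap for 3 of the 9 (9.31% of all genes, higher), and all 9 estimates were above 0, with a median of 0.27 (0.00 over all genes). The call was lost without old Cas9 replicate 1 or 2 (adjusted p = 0.0551 and 0.104), with log2 depth in the model and in the fit of 24 libraries (0.998 and 0.28), and Hsp26 was called higher without young Cas9 replicate 2 (0.36, 0.0197). Depth did not overlap between old and young Cas9, so the depth fit cannot tell it apart from age. In Marf-mut, Hsp27 fell with age (-0.60, SE 0.10, adjusted p = 0.00241) and l(2)efl rose (1.74, SE 0.34, adjusted p = 0.0358), with 3.39% of all genes called, 2.62% higher and 0.763% lower. Libraries did not overlap for 1 gene that was higher and 2 that were lower (12.5% and 8.47% of all genes). The l(2)efl call was lost without young Marf-mut replicate 3 or any 1 of the old Marf-mut libraries (0.0635 to 0.18), with log2 depth in the model and in the fit of 24 libraries (0.115 and 0.113). Without young Marf-mut replicate 3, Hsp26 (-0.34, adjusted p = 0.00532) and DnaJ-1 (-0.28, 0.0484) were called lower with age, DnaJ-1 also with log2 depth in the model (0.00537) and Hsp67Bc (-0.57, 0.01) without the filter. In Opa1-mut, Hsp27 fell with age (-0.34, SE 0.08, adjusted p = 0.00699), 1 of 9 where 12.4% of all genes were called and 4.78% lower, and libraries did not overlap for 1 higher and 2 lower (16.9% and 13.7% of all genes). Without old Opa1-mut replicate 3, l(2)efl was called higher with age (0.92, adjusted p = 0.00229). In Drp1-mut 0 of the 9 were called by edgeR and 1 by DESeq2 (Hsp27, 0.51, adjusted p = 0.00805), with 2 at an unadjusted p under 0.05 and 0.705% of all genes called, and libraries of 2 genes were all higher in old flies (8.07% of all genes).

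Whether a mutant's difference from Cas9 changed with age was tested as an interaction over 12 libraries. Hsp27 was the 1 gene of 9 called, in both fusion mutants. Its Marf-mut effect was lower in old than in young flies by 0.74 on the log2 scale (SE 0.15, adjusted p = 0.0359), with 0.284% of all genes called and 0.257% lower. Its Opa1-mut effect was lower by 0.49 (SE 0.13, adjusted p = 0.0303), with 5.63% of all genes called and 3.27% lower. The other genes that fell in old Marf-mut had estimates of -1.08 (Hsp67Bc, adjusted p = 0.174) to -0.10 (Hsp83, 0.876), so their change with age was not shown. DnaJ-1 was called by DESeq2 (-0.61, adjusted p = 0.0248) and Hsp67Bc without the filter (1.29e-06). For Drp1-mut edgeR called none of the 9 and none of the 7256 genes tested (0% of all). DESeq2 called 3 genes of the table, none of them among the 9, and 1 of the 9 had an unadjusted p under 0.05.

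These Hsp27 calls depend on single libraries. The Marf-mut one held in 3 of 12 omissions, namely those of young Cas9 replicates 1 and 2 and young Marf-mut replicate 3, and was otherwise lost (adjusted p of 0.0526 to 0.176). The Opa1-mut one held in 4 of 12, namely those of young Cas9 replicates 1 and 2, old Cas9 replicate 3 and old Opa1-mut replicate 2, and was otherwise lost (0.0596 to 0.0928). Estimates stayed between -0.80 and -0.66 for Marf-mut and between -0.56 and -0.41 for Opa1-mut. Neither was called under total count scaling (-0.67 and -0.40, adjusted p of 0.0691 and 0.0613), nor the Opa1-mut one without the filter (0.0639) or with log2 depth in the model (0.806). Calls were gained for Marf-mut by DnaJ-1 without young Cas9 replicate 1 (-0.70, adjusted p = 0.0456), Hsp26 without young Marf-mut replicate 3 (-0.63, 0.0153) and Hsp67Bc without old Marf-mut replicate 3 (-1.36, 0.0095). For Opa1-mut they were gained by DnaJ-1 without young Cas9 replicate 1 (-0.50, adjusted p = 0.0409) and Hsp67Bc without young Opa1-mut replicate 2 (-0.54, 0.0242).

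When the UMIs of each suspension were summed and the 8 sums fitted by genotype and age, stv was lower in Marf-mut over both ages (-1.01, SE 0.13, adjusted p = 0.0357). It was the 1 gene of 9 called, where 0.103% of all genes were called and 0.0345% lower. Hsp67Bc (-1.03), Hsp26 (-0.74), Hsp23 (-0.70), Hsp27 (-0.69), DnaJ-1 (-0.37) and Hsp83 (-0.35) were below 0 and not called (adjusted p of 0.0647 to 0.76). DESeq2 called Hsp23 (3.5e-05), Hsp67Bc (0.00147) and Hsp26 (0.00644) there as well. The stv call was lost without the young Cas9, young Marf-mut, old Cas9 or old Marf-mut suspension (estimates of -1.18 to -0.85, adjusted p of 0.0787 to 0.384), each of which leaves 1 suspension in an arm. Hsp67Bc was called without the young Marf-mut suspension (-1.43, adjusted p = 0.0387), and Hsp23 without the young or the old Opa1-mut suspension (-0.71 and -0.70, 0.00907 and 0.0122). In Opa1-mut 0 of the 9 were called by edgeR and 0 by DESeq2, with 2 at an unadjusted p under 0.05 and 0.609% of all genes called, and l(2)efl had the largest estimate at 2.07 (adjusted p = 0.384). In Drp1-mut it was 0 by edgeR, by DESeq2 and at an unadjusted p under 0.05, with 0.138% of all genes called.

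Other chaperone families were counted from lists of names, also chosen with earlier results of these data known. Of 13 Hsp70 family genes, which code for the ATP-driven chaperones that the co-chaperones serve, 11 were tested. In old Marf-mut 8 of them fell and none rose, where 4.58% of all genes were called and 2.91% lower. The median over the 11 was -1.28 (0.01 over all genes). The falls with the smallest p were Hsp70Ab (-1.30, SE 0.09, adjusted p = 8.47e-10), Hsp70Bb (-0.72, adjusted p = 6.89e-07), Hsp68 (-1.28, 6.89e-07) and Hsp70Bbb (-1.79, 6.42e-05). The Hsp70 genes named Aa, Ab, Ba, Bb, Bbb and Bc are near-identical copies, so reads may be split between them and single values are uncertain. For the same reason the count and the median over the 11 are not those of independent genes. Their sum was 5246 to 6008 CPM in old Cas9 and 2581 to 3009 in old Marf-mut, and 3660 to 4253 and 2953 to 3446 in the young groups, without overlap at either age. In young Opa1-mut the sum was 4568 to 5420, above all young Cas9 libraries. There 0 of the 11 were called by edgeR and 0 by DESeq2, with 2 at an unadjusted p under 0.05 and 2.94% of all genes called. In young Marf-mut Hsp68 alone of the family was called lower (-0.62, SE 0.13, adjusted p = 0.0443), where 0.346% of all genes were called and 0.138% lower. In Drp1-mut 0 of the 11 were called at either age by edgeR or DESeq2, with 2 at an unadjusted p under 0.05 in young and 0 in old flies. Of all genes, 0.0831% were called in young and 0.394% in old Drp1-mut.

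In the other families the calls in old Marf-mut are to be read against 4.58% of all genes. Of the 8 genes of the cytosolic chaperonin, a ring that folds actin and tubulin, 0 were called by edgeR and 0 by DESeq2, with 1 at an unadjusted p under 0.05 and a median of 0.17. Of 19 other J-domain genes tested there, CG7130 rose (0.85, adjusted p = 0.0301) and jdp fell (-0.37, 0.0113). Of 15 cofactors of Hsp90 and Hsp70, HIP-R fell (-0.74, adjusted p = 0.0233). Of 2 other small heat shock genes tested, Hsp67Ba fell (-0.57, adjusted p = 0.000693). Whether the families differ from each other was not tested. Under total count scaling, which shifts the median of all genes in this comparison to 0.10, the Hsp70 family still had 7 falls and a median of -1.19, jdp was no longer called and the chaperonin median was 0.26.

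In old Opa1-mut the Hsp70 family was divided, with 5 falls and 2 rises among the 11, where 13.2% of all genes were called and 5.65% lower. Hsp70Bbb (-1.01, adjusted p = 7.88e-07), Hsp70Bc (-0.81, 1.72e-05), Hsp70Aa (-0.50, 0.000402) and Hsp70Ba (-1.45, 0.00157) fell. The rises, named after their values were seen, were Hsc70-3 (0.40, adjusted p = 0.00645), the chaperone of the endoplasmic reticulum, and Hsc70-5 (0.37, 0.0142), that of the mitochondrial matrix. The summed Hsp70 copies stood at 4004 to 4570 CPM there, below old Cas9 and above old Marf-mut in all libraries. Of the 8 chaperonin genes CCT5 (0.46, adjusted p = 0.00382), CCT3 (0.55, 0.00702), CCT4 (0.45, 0.00955) and CCT1 (0.42, 0.0412) rose, with a median of 0.41 over all 8. DESeq2 called 1 of the 8, and total count scaling gave 6. Of the 19 other J-domain genes tested in old Opa1-mut, CG7130 (2.17, adjusted p = 1.27e-08) and Hsc20 (0.72, 0.0277) rose and jdp fell (-0.70, 0.000282). In young Opa1-mut 1 of the 19 was called, CG7130, which rose (2.25, adjusted p = 1.84e-05), where 2.94% of all genes were called. Of the 15 cofactors HIP-R fell in old Opa1-mut (-0.55, adjusted p = 0.045), a call not made under total count scaling. ref(2)P, the fly p62 autophagy receptor, rose in old Opa1-mut (0.51, adjusted p = 0.000765), and the heat-inducible noncoding RNA Hsromega in young Opa1-mut (0.51, 0.0393).

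**Figure D4:**
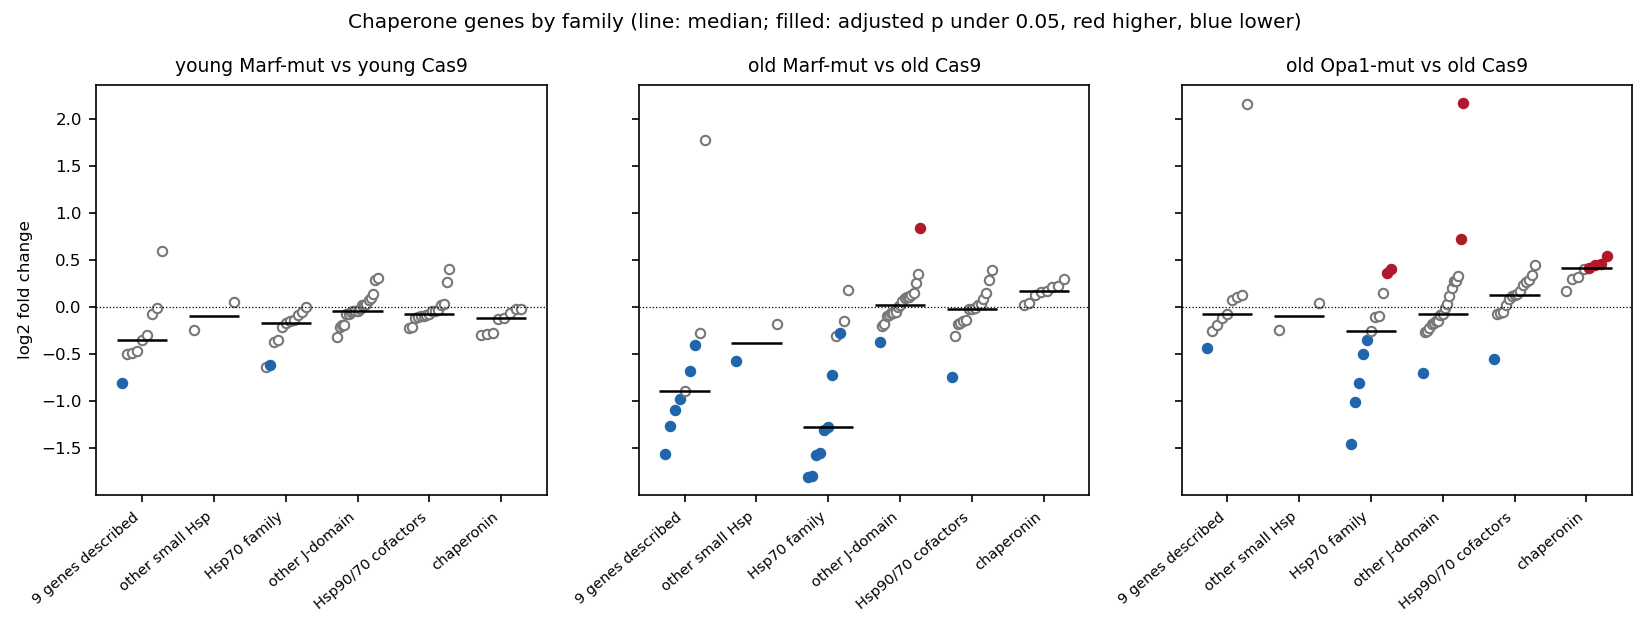
Log2 fold change (y axis) of every tested gene of the 9 described and of 5 further chaperone families in 3 comparisons with Cas9, with the median of each family as a line and filled points at an adjusted p under 0.05 (red higher, blue lower). In old Marf-mut the Hsp70 family (median -1.28) and the 9 genes (median -0.89) lie low and the chaperonin (0.17) does not.

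Across the 24 libraries the level of several of these genes ran closest to that of an Hsp70 copy, which is a description, since all values share the depth and scaling of the same libraries. The comparison on log2 CPM was with 4287 genes, and unnamed (CG) genes and noncoding RNA were left out of it. Among these 4287 the nearest to Hsp26, Hsp27 and Hsp67Bc was Hsp70Ab (Pearson r of 0.953, 0.914 and 0.86). The nearest to stv were Hsp68 (0.921), Hsp70Ab (0.841) and DnaJ-1 (0.788). DnaJ-1 was nearest to Hsp70Aa (0.869) and Hsp83 to Hsp26 (0.84). Hsp23 was nearest to the neuropeptide gene CNMa (0.849), and l(2)efl to the ribosome factor gene eIF6 (0.805). Among the 9 genes the highest r was that of Hsp26 with Hsp27 (0.885), whereas l(2)efl and Hsf reached at most 0.0568 and 0.338 with any other.

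Several other quantities also differed between old Marf-mut and old Cas9. Old Marf-mut libraries held 1394517 to 1735212 UMIs and old Cas9 libraries 1109778 to 1313809. Old Opa1-mut libraries held 1468850 to 1843669, also more than old Cas9, and old Drp1-mut libraries 684175 to 1148217. The 9 markers of other neurons summed to 4741 to 8897 CPM in old Marf-mut and 10410 to 12260 in old Cas9, largely the peptide gene Hug, which had means of 3223 and 8254. This was not particular to old Marf-mut. The sum was also below old Cas9 in old Drp1-mut (1993 to 7523) and old Opa1-mut (5915 to 9970), with Hug means of 2023 and 4277. Single old Marf-mut libraries ran from 279 to 4731 CPM for Hug. Of the other markers in this list, Ilp2 (means of 230 and 29.1), Dh44 (1778 and 1046) and Gad1 (671.6 and 646.4) were higher in old Marf-mut. VGlut, ple, Tdc2, SIFa and mAChR-A had lower means there. The 7 clock neuron markers summed to 16350 to 20620 against 13700 to 15650 CPM, a higher sum that lay in the peptide gene Pdf (means of 16620 and 11360), while the other 6 markers had lower means in old Marf-mut and tim (-0.53) and Pdp1 (-0.54) fell. The 6 photoreceptor markers summed to 99.0 to 127.5 against 79.1 to 86.7, with ninaE at 0 in 1 or more libraries of each. The 10 glial markers overlapped (1031 to 1292 against 727 to 1062). The 7 activity-regulated genes summed to 1551 to 1868 CPM in old Marf-mut, 928.5 to 1193 in old Cas9 and 3144 to 3410 in old Opa1-mut. The higher sum in old Marf-mut was not shared across the list. With DESeq2 size factors, 1 of the 7 was called higher and 1 lower against old Cas9, with a median of -0.18. In old Opa1-mut 4 were called higher and 0 lower, with a median of 0.39. The part of these quantities in the falls of heat shock genes was not tested. Depth did not overlap between old Marf-mut and old Cas9, so a fit with log2 depth cannot tell it apart from genotype. In that fit Hsp26, Hsp27, Hsp67Bc, stv and DnaJ-1 kept their calls in old Marf-mut and Hsp83 lost its call (-0.25, adjusted p = 0.452).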

How the data were processed

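Sorted pools of GFP-positive clock neurons were made into 5′ UMI libraries (Smart-seq3, per the labels' protocols). The deposited count table holds UMI counts over exons for 15610 genes, with each of its 24 columns matched to a sample by name and 0 left unmatched. STAR, DESeq2 and the dm6 build are named, without versions, in the submitters' processing notes. The authors also deposited tables for the 6 comparisons with Cas9, holding a log2 fold change with its SE, a p-value with its adjusted form, and 2 scores, the mean scaled count and the test statistic. Values from them are credited in the text to the authors' deposited table and were not used in any test here.

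Counts were tested with edgeR 4.0.16 in R 4.3.3 (TMM scaling, filterByExpr, robust quasi-likelihood fit of the groups compared), with Benjamini-Hochberg adjustment over all genes tested and a threshold of 0.05. All 9 genes passed the filter in all 22 comparisons. The SE is the size of the log2 fold change divided by the square root of F. CPM values are TMM-scaled over the 24 libraries. Coordinates come from the Ensembl annotation of dm6. Named genes are the members and, from each further chaperone list, at most 4 called genes with the smallest adjusted p. For likeness, the 3 genes of highest r were taken among genes averaging at least 20 UMIs per library. Symbols of CG or CR with a number, those starting with as, and those holding RNA or a colon were left out. The members and lists were chosen with earlier results of these data known. Alternatives were DESeq2 1.42.0 as the test, its size factors, total count scaling, no filter, a replicate block, log2 depth as a covariate, fits of 12 or 24 libraries, and omission of each library or suspension. The scaling of the family counts was added after the data were seen. Same-numbered libraries do not deviate together, so the block is given only among the alternatives. No 2 libraries of a group agreed within sampling noise. Of the further list names, DnaJ-60 and l(2)tid are not analysed here.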

Additional observations from a re-analysis of the deposited data

Results flagged for a closer look

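The Marf-mut effect on Hsp27 differed between ages in a test of the difference itself: it was -0.35 (SE 0.13) in young and -1.09 (SE 0.09) in old flies, and the interaction was -0.74 (adjusted p = 0.0359 by edgeR). The Opa1-mut effect on Hsp27 also differed between ages, from 0.42 (SE 0.10) in young to -0.07 (SE 0.09) in old flies, with an interaction of -0.49 (adjusted p = 0.0303). Both interactions use the same 6 Cas9 libraries. Each was called in a minority of the omissions of a library.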

How the results depend on the processing

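Counts below are of the 9 genes called, and the cause of each change was not tested. Without the filter on low counts they were 1 (young Drp1-mut against Cas9), 2 (young Marf-mut), 1 (old Drp1-mut), 4 (Marf-mut with age), 2 (Opa1-mut with age), 2 (young Opa1-mut against Drp1-mut), 3 (young Marf-mut against Drp1-mut), 2 (old Opa1-mut against Drp1-mut), 2 (Marf-mut interaction), 0 (Opa1-mut interaction) and 3 (Marf-mut suspensions). With DESeq2 as the test they were 2 in young Marf-mut, old Opa1-mut, both young comparisons with Drp1-mut and the Marf-mut interaction, 1 in Drp1-mut with age and 4 in Marf-mut suspensions. With the replicate block they were 3 in young Marf-mut, 1 in old Drp1-mut, and 2 in old Opa1-mut, young Marf-mut against Drp1-mut and old Opa1-mut against Drp1-mut. Of the calls of the text the block lost Hsp27 in young Opa1-mut (0.42, adjusted p = 0.0846) and Hsp67Bc in young Opa1-mut against Marf-mut (1.003, 0.168). Replicate numbers did not pair the libraries, since the deviations of same-numbered libraries had a mean r of 0.0206 and those of different numbers -0.0102. With log2 depth they were 3 (young Marf-mut), 1 (young Opa1-mut), 0 (Cas9 with age), 2 (old Marf-mut against Drp1-mut) and 0 (Opa1-mut interaction, Hsp27 -0.33, adjusted p = 0.806). Depth did not overlap between Opa1-mut and Cas9 at either age, or between old and young Cas9. Nor did it overlap between old Drp1-mut and old Marf-mut or old Opa1-mut. Fits with log2 depth cannot tell depth apart from group there. Hsp23 in old Opa1-mut against old Drp1-mut, not called in either fit, changed from -0.32 to 0.34 with log2 depth. In the fit of 24 libraries they were 2 (young Marf-mut), 1 (young Opa1-mut), 0 (Cas9 with age), 2 (Drp1-mut with age), 1 (Marf-mut with age), 2 (young Opa1-mut against Drp1-mut) and 1 (old Opa1-mut against Drp1-mut). In fits of 12 libraries of an age they were 0 in young Marf-mut and young Opa1-mut and 1 in old Opa1-mut against Drp1-mut. Under total count scaling they were 1 (old Drp1-mut), 0 (old Opa1-mut), 2 (young Opa1-mut against Drp1-mut), 0 (young Marf-mut against Drp1-mut), 3 (old Opa1-mut against Drp1-mut) and 0 for both interactions. That scaling shifts the median of all genes to -0.12 in Cas9 with age, -0.14 in Drp1-mut with age, 0.13 and 0.16 in old Opa1-mut and old Marf-mut against Drp1-mut, and 0.11 in the Opa1-mut interaction. DESeq2 size factors moved no count by over 1.5 times. Over omissions of 1 library, which leave groups of 2, the counts ran from 0 to 1 in young Marf-mut, 1 to 3 in young Opa1-mut, 5 to 6 in old Marf-mut, 0 to 1 in old Opa1-mut, 0 to 2 in Cas9 with age, 1 to 3 in Marf-mut with age, 1 to 2 in Opa1-mut with age, 1 to 5 in young and 6 to 7 in old Opa1-mut against Marf-mut, 0 to 2 in young and 0 to 1 in old Opa1-mut against Drp1-mut, 0 to 1 in young and 3 to 5 in old Marf-mut against Drp1-mut, and 0 to 2 in both interactions. Over omissions of a suspension they ran from 0 to 2 in Marf-mut, where the lone suspension left in an arm takes its spread from the other groups. The other comparisons had 0 in every omission. Of the gene and comparison pairs, 124 were called in no setting, and 93 of their 1765 alternative values had the other sign.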
